A study of Mus musculus with 6 samples.

Results

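The aminoacyl-tRNA synthetases are the enzymes that join each amino acid to its tRNA. They were followed as 36 nuclear genes, picked by gene symbol from the 21958 protein-coding genes of the deposited count table, 20 for cytosolic enzymes and 16 for the mitochondrial enzymes whose symbols end in 2. All 36 had enough counts to be among the 12255 genes compared, although the lowest count of a mitochondrial enzyme in any library was 2 and the lowest of a cytosolic enzyme was 12.

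Synaptoneurosomes, a filtered homogenate rich in resealed synaptic endings that also carries pieces of glia, were made from hippocampus and adjacent cortex of FVB mice aged 6 to 8 weeks, with the tissue of several mice pooled. The 3 libraries labelled NMDA polyribosomes held RNA from pooled light and heavy polyribosome fractions of a sucrose gradient, taken 20 min after a 30 s pulse of 50 µM NMDA and 10 µM glutamate that was stopped with the receptor antagonist APV (120 µM). The 3 libraries labelled unstim. Total held total RNA of synaptoneurosomes that were not stimulated. The study's methods kept unstimulated samples on ice with cycloheximide, an inhibitor of translation elongation. Ribosomal RNA was removed from the RNA of both groups before the libraries were made. The groups differ in stimulation, incubation and RNA fraction, and these cannot be told apart. The labels give the strain and no genotype or transgene for either group.

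Cells run parallel sets of these enzymes. The cytosolic set charges tRNAs for ribosomes in the cytoplasm. The mitochondrial set is made from nuclear genes, imported, and charges the tRNAs encoded by mitochondrial DNA so that subunits of the respiratory chain can be made inside the organelle. Some genes serve both places: Gars and Kars each give a cytosolic and a mitochondrial form, Eprs joins the glutamate and proline enzymes in a single chain, and mitochondria make glutamine-charged tRNA through an amidotransferase rather than through a glutamine enzyme of their own. In the cytosol several synthetases sit together with scaffold proteins in the multi-synthetase complex. Inherited defects of many of these enzymes affect brain and peripheral nerve.

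Library totals were 5294482 to 7361580 counts for polyribosomes and 1044955 to 3738022 for total RNA, with the shallowest library being unstim. Total replicate 3. Libraries with the same replicate number were taken to be aliquots of the same preparation. Preparation 3 stood apart from the others. The Y-linked genes Ddx3y, Eif2s3y, Kdm5d and Uty, looked at after the data had been seen, summed to 409 counts in its polyribosome library and 149 in its total RNA library, against 0 or 1 in the other 4 libraries, whereas the study's methods name male mice. Results that rest on preparation 3 are therefore given with and without it. Synapse markers were present in every library, and 6 of 8 had a positive log2 fold change of polyribosomes over total RNA. They summed to 8951 to 12080 CPM (counts scaled to library size with edgeR's TMM factors) on polyribosomes and 8096 to 9918 in total RNA. These ranges overlapped. All glial markers listed also had positive log2 fold changes between the 2 groups, with 10 of 10 each for astrocytes, oligodendrocytes and microglia. Of all genes tested 50.1% were positive. Summed astrocyte markers were at 45164 to 49650 CPM on polyribosomes and 34697 to 40594 in total RNA. Microglia markers summed to 956 to 1111 CPM against 628 to 863. Oligodendrocyte markers summed to 11065 to 14903 against 7968 to 11115 CPM, so those ranges overlapped, and endothelial markers spanned 347 to 606 against 371 to 386 CPM. None of the marker genes was at 0 in any library. The part of these markers in the results on synthetases was not tested, and in bulk RNA fewer cells or terminals of a type cannot be told apart from less RNA in each.

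The cytosolic enzymes were the more abundant set in every library. On polyribosomes their median level was 12.5 ± 0.12 CPM per kb of exon (SD, n = 3), and it was 11.8 ± 0.77 in total RNA, while the mitochondrial enzymes were at 2.70 ± 0.15 and 3.33 ± 0.51. The median over all genes tested lay between them, at 6.68 and 6.91 CPM per kb. Eprs and Nars, which charges asparagine, were the highest cytosolic members, and Tars, the threonine enzyme, was the lowest. Eprs was at 26.1, 26.2 and 29.8 CPM per kb on polyribosomes and at 29.2, 31.0 and 33.4 in total RNA for replicates 1 to 3. Tars was at 4.09, 3.57 and 3.91 CPM per kb on polyribosomes and at 3.91, 3.34 and 5.27 in total RNA, so that its groups overlapped. Among mitochondrial members Pars2, the proline enzyme, was the lowest, with 1.24, 1.43 and 0.743 CPM per kb on polyribosomes and 1.87, 1.43 and 2.20 in total RNA. Lars2, the leucine enzyme, was the highest, but its level ranged from 12.6 to 141 CPM per kb over the libraries, and it is described further on.

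**Figure D1:**
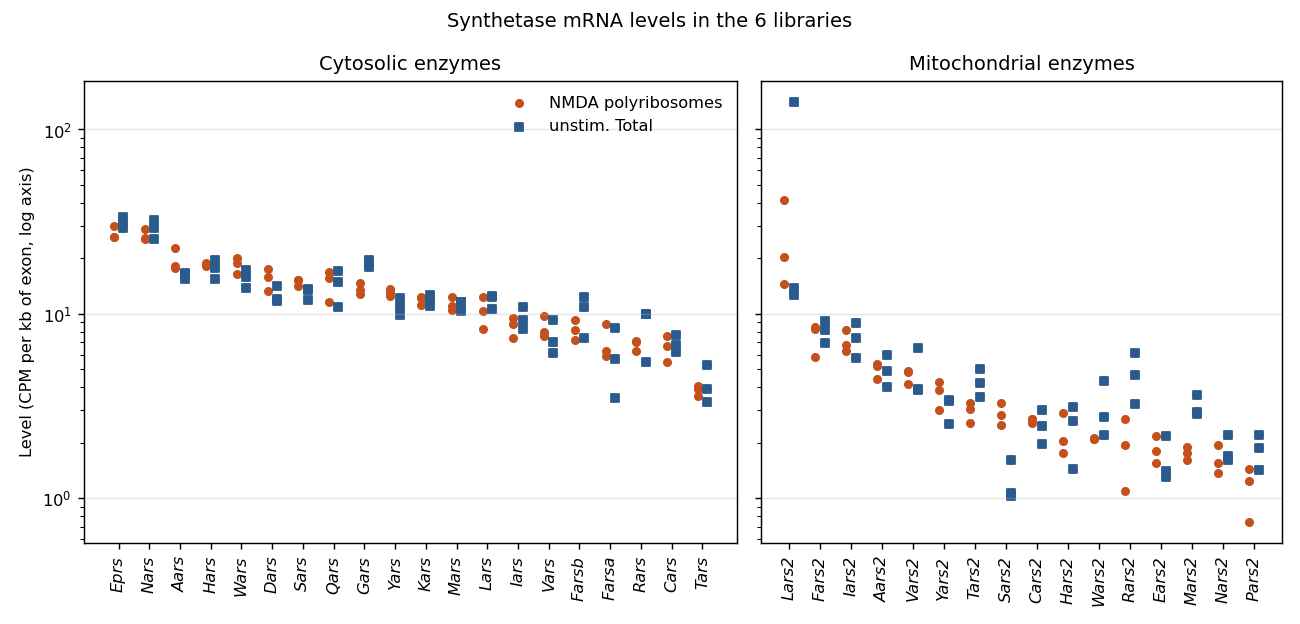
Level of each synthetase mRNA in each of the 6 libraries, in CPM per kb of exon on a log axis, with cytosolic enzymes on the left and mitochondrial enzymes on the right, each ordered by mean level. Circles are NMDA polyribosomes and squares unstim. Total. Most cytosolic enzymes lie above 5 CPM per kb and most mitochondrial enzymes below it, and a single square for Lars2 at 141 CPM per kb lies above all other points.

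The first comparison was whether synthetase mRNAs were enriched on or depleted from polyribosomes relative to total RNA. In the unpaired fit of the 2 groups none of the 36 members passed the threshold, an adjusted p under 0.01 (quasi-likelihood test of edgeR, Benjamini-Hochberg over all genes), where 3.07% of all genes tested were called, 0.71% higher and 2.36% lower. DESeq2 also called none, where it called 7.14% of the genes it adjusted, although it gave no adjusted p for 7 mitochondrial members. At an unadjusted p under 0.05 there were 5 of the 36 members, Gars, Mars2, Rars2 and Tars2 with negative and Sars2 with positive log2 fold changes, beside 32.5% of all genes tested. At an adjusted p under 0.05 (edgeR) there were Mars2, Rars2 and Sars2, beside 15.4% of all genes. Because the libraries of a preparation deviate together, the fit was repeated with the replicate number as a block, and 4 members were then called, against 25.0% of all genes tested (11.8% higher and 13.2% lower). Gars, Mars2 and Rars2 were lower on polyribosomes and Sars2 was higher. The share of members called was thus below that of all genes in both fits, although 3.07% is too small a share for 36 members to fall far below it.

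Most members differed little between the groups. The log2 fold change of polyribosomes over total RNA lay within 0.25 of 0 for 14 of the 20 cytosolic and 7 of the 16 mitochondrial enzymes. The cytosolic median was -0.01, with 9 positive and 11 negative members, and the mitochondrial median was -0.17, with 6 positive and 10 negative, beside a median of 0.00 over all genes tested. Within preparations 1 to 3 the median log2 ratio of the cytosolic enzymes was -0.01, 0.07 and 0.04, and that of the mitochondrial enzymes was -0.10, -0.05 and -0.22. The cytosolic median was thus the higher in each preparation, by 0.16 ± 0.09 (SD, n = 3), and by 0.10, 0.13 and 0.24 when Lars2 was left out. In the edgeR fits the difference of the medians rested on single libraries, with 0.049 to 0.22 when each was left out in turn and 0.010 without preparation 2 with the block. The CPM values of the groups did not overlap for 4 members that were higher (Aars, Sars, Yars and Sars2) and 5 that were lower (Gars, Mars2, Rars2, Tars2 and Wars2), while 36.2% of all genes tested had groups that did not overlap, 17.4% higher and 18.8% lower.

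**Figure D2:**
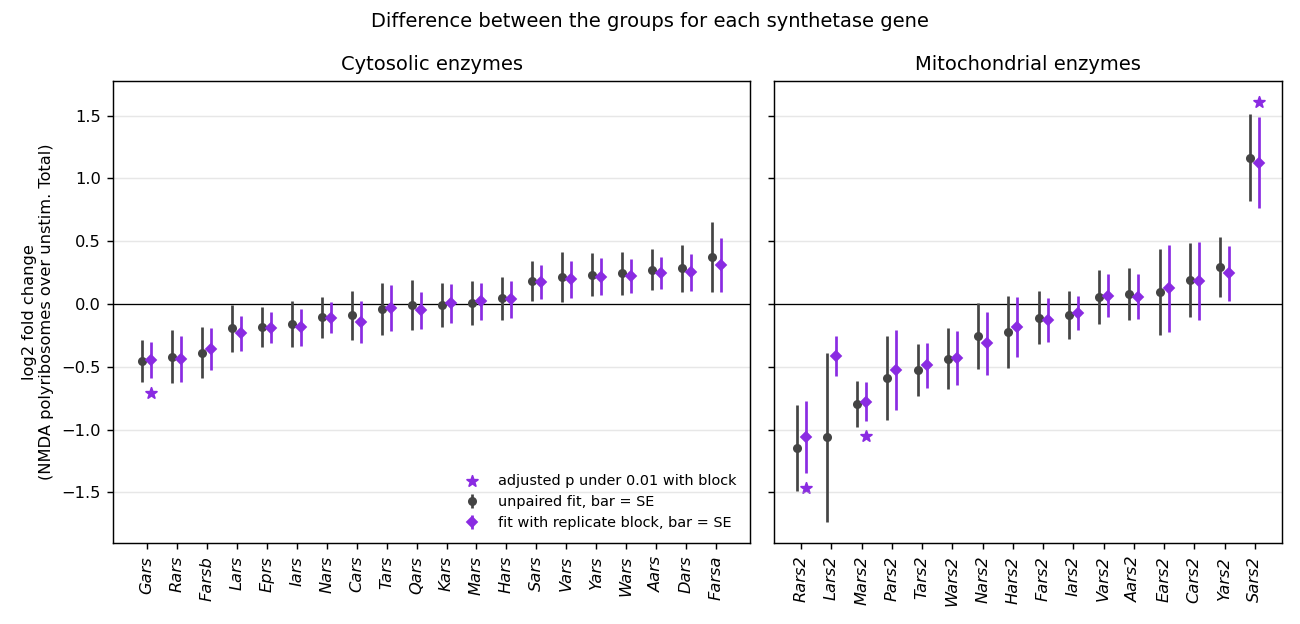
Log2 fold change of NMDA polyribosomes over unstim. Total for each synthetase gene, ordered within cytosolic (left) and mitochondrial (right) enzymes. Circles are the unpaired edgeR fit, diamonds the fit with the replicate block, bars are standard errors, and stars mark an adjusted p under 0.01 with the block. The cytosolic enzymes span -0.46 to 0.37 and the mitochondrial ones -1.15 to 1.16 in the unpaired fit.

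Gars, the glycine enzyme (chr6:55038001-55079504, plus strand, GRCm38), was the only cytosolic member called in the fit with the block. It was at 34.9, 32.1 and 30.5 CPM on polyribosomes and at 46.7, 42.9 and 44.1 CPM in total RNA. Every total RNA library lay above every polyribosome library. Its log2 fold change was -0.46 ± 0.17 (SE; adjusted p = 0.0752 by edgeR's quasi-likelihood test) unpaired and -0.44 ± 0.14 with the block (adjusted p = 0.00922). With the block it remained below the threshold without preparation 3 (adjusted p = 0.00778) and not without preparation 1 (0.0751) or 2 (0.119), where the log2 fold change was -0.48 and -0.46 (edgeR) and 12.6% and 9.7% of all genes were called. The call of Gars therefore lies close to the threshold, with a value that changed little.

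The other cytosolic enzymes at the low end were Rars and Farsb. Rars, the arginine enzyme and a member of the multi-synthetase complex, was at 13.3, 14.8 and 15.03 CPM on polyribosomes and at 21.1, 21.1 and 11.5 CPM in total RNA. Preparation 3 went the other way from preparations 1 and 2, but its total RNA value rests on 12 counts. The log2 fold change of Rars was -0.42 ± 0.21 (edgeR adjusted p = 0.188), and -0.44 with the block (0.0463). Without preparation 3 it was called, at -0.61 (adjusted p = 0.00327, edgeR with the block), as were Gars and no other cytosolic enzyme in that fit, where 24.5% of all genes were called (11.7% higher and 12.8% lower).

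Farsb and Farsa encode the beta and alpha subunits of the cytosolic phenylalanine enzyme, which works as a tetramer of both. Farsb was at 20.4, 17.9 and 15.9 CPM on polyribosomes and at 27.3, 24.1 and 16.3 in total RNA, with a log2 fold change of -0.39 ± 0.21 (edgeR adjusted p = 0.208). Farsa was at 11.5, 10.8 and 16.1 CPM on polyribosomes and at 10.4, 6.36 and 15.3 in total RNA, with a log2 fold change of 0.37 ± 0.28 (edgeR adjusted p = 0.377), the most positive of the cytosolic enzymes. Neither subunit passed the threshold, the groups of both overlapped, and the difference between the subunits was not tested.

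At the high end Aars, the alanine enzyme, was at 102, 105 and 131 CPM on polyribosomes and at 95.9, 88.4 and 94.9 CPM in total RNA. The groups did not overlap, but the log2 fold change of 0.27 ± 0.17 did not pass (edgeR adjusted p = 0.27). The end of the Aars transcript, 1326 bases after its stop codon, is shared with Exosc6 on the same strand, and reads there cannot be assigned to either gene from these counts. Dars, the aspartate enzyme of the multi-synthetase complex, was at 38.8, 32.8 and 43.2 CPM against 34.8, 28.8 and 29.7 CPM, with a log2 fold change of 0.28 ± 0.18 (edgeR adjusted p = 0.307). Sars (serine) and Yars (tyrosine) had groups that did not overlap as well, at log2 fold changes of 0.18 ± 0.16 and 0.23 ± 0.17, neither of which passed (edgeR adjusted p = 0.468 and 0.373). The 8 enzymes of the multi-synthetase complex had a median log2 fold change of -0.08 and the 12 free cytosolic enzymes one of 0.11, with ranges that overlapped, from -0.42 to 0.28 and from -0.46 to 0.37.

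Mars2, the methionine enzyme of mitochondria (chr1:55237177-55248470, plus strand, GRCm38), had the lowest adjusted p of all members. It was at 19.9, 21.5 and 18.3 CPM on polyribosomes and at 32.3, 33.2 and 41.2 CPM in total RNA. All total RNA libraries lay above all polyribosome libraries. Its log2 fold change was -0.80 ± 0.18 (adjusted p = 0.0133, edgeR's quasi-likelihood test) unpaired and -0.78 ± 0.16 with the block (adjusted p = 2.6e-05), and it was called when any single preparation was left out of the fit with the block (edgeR adjusted p = 0.00134, 0.00252 and 1.1e-04). Unpaired, it was called without preparation 3 (edgeR adjusted p = 0.00924, where 8.86% of all genes were called), with library totals in place of TMM (0.00879, 3.33%) and with all genes of at least 1 count kept (0.0061, 6.23%). The annotated transcript is unusual among the members in its length of 11294 bases, of which 1758 are coding, and in its GC content of 38.8%, the lowest of the 36, and its difference was no longer called once both were entered in the fit, at -0.19 (edgeR adjusted p = 0.372).

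Rars2, the mitochondrial arginine enzyme (chr4:34614957-34660167, plus strand), was at 5.01, 3.62 and 2.06 CPM on polyribosomes and at 8.69, 6.03 and 11.5 CPM in total RNA. The groups did not overlap, and the widest gap was in preparation 3, where both libraries held few counts of the gene. Its log2 fold change was -1.15 ± 0.34 (edgeR adjusted p = 0.0373) and -1.06 ± 0.29 with the block (0.00175). Without preparation 3 the value was -0.78 with the block and was no longer called (edgeR adjusted p = 0.0243), whereas it was called without preparation 1 (-1.38, 0.00885) or 2 (-1.24, 0.00621).

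Sars2, the mitochondrial serine enzyme (chr7:28741968-28753879, plus strand), was the only member called higher in the fit of all libraries with the block. It was at 5.28, 4.67 and 6.18 CPM on polyribosomes, from 39, 31 and 30 counts, and at 1.99, 3.01 and 1.92 CPM in total RNA, from 8, 9 and 2 counts. The groups did not overlap, but the total RNA side rests on few counts. The log2 fold change was 1.16 ± 0.35 (edgeR adjusted p = 0.0366) and 1.13 ± 0.36 with the block (0.00943), and the call was lost whichever preparation was left out, with values of 0.91, 1.47 and 1.02 and adjusted p of 0.179, 0.0200 and 0.0257 (edgeR with the block).

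The next mitochondrial enzymes at the low end were Tars2 and Wars2, which charge threonine and tryptophan, and Pars2. Tars2 was at 14.3, 13.3 and 11.1 CPM on polyribosomes and at 21.9, 15.4 and 18.2 in total RNA, with a log2 fold change of -0.53 ± 0.21 (edgeR adjusted p = 0.0956). Wars2 was at 9.20, 9.34 and 9.26 CPM on polyribosomes and at 12.2, 9.71 and 19.2 in total RNA, with a log2 fold change of -0.44 ± 0.24 (edgeR adjusted p = 0.23). The groups of both did not overlap, and neither gene passed with or without the block. Pars2 had a log2 fold change of -0.59 ± 0.33 (edgeR adjusted p = 0.235) from groups that overlapped. At the high end after Sars2, Yars2 (tyrosine) was at 9.47, 12.2 and 13.4 CPM against 7.95, 10.7 and 10.5, and Cars2 (cysteine) at 4.87, 5.12 and 5.15 CPM against 3.72, 4.69 and 5.75. Their groups overlapped and their log2 fold changes of 0.29 ± 0.24 and 0.19 ± 0.30 did not pass (edgeR adjusted p = 0.424 and 0.699).

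Lars2 (chr9:123366940-123462664, plus strand) was the member in which a single library decided the value. It was at 78.9, 56.3 and 162 CPM on polyribosomes and at 54.1, 49.2 and 549 CPM in total RNA. The libraries of preparation 3 were the highest in each group, and unstim. Total replicate 3 was 10.1 times the higher of the other total RNA libraries, the largest such ratio among 10769 genes with a mean above 5 CPM after the Y-linked genes were left out. For the next genes, Sptb and Gh, it was 5.02 and 4.51, and for the other 31 members above that level it ranged from 0.46 to 1.66. Of all counts on the 16 mitochondrial enzymes, Lars2 took 69.9% in that library, against 19.1% and 19.4% in the other total RNA libraries and 28.1%, 23.4% and 46.3% on polyribosomes.

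**Figure D3:**
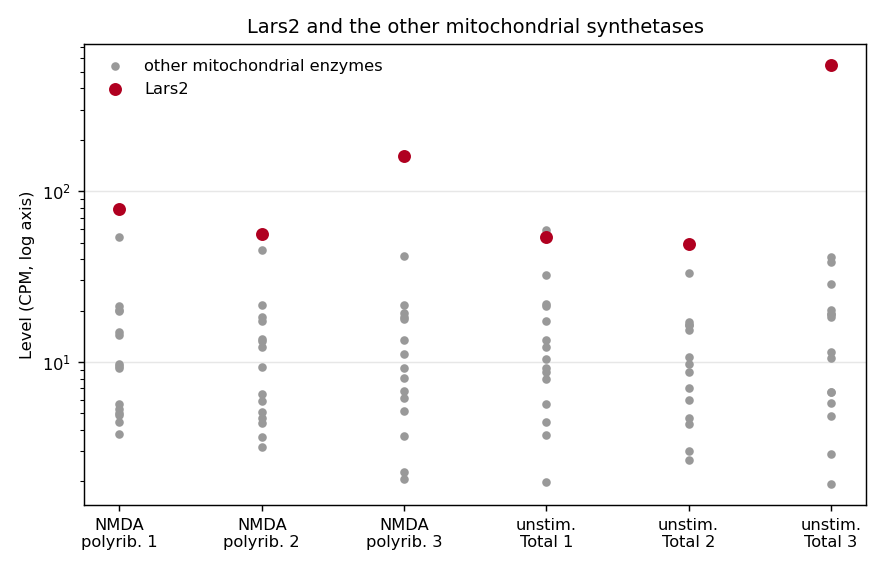
Level in CPM, on a log axis, of Lars2 (large red points) and of the other 15 mitochondrial synthetases (small grey points) in each of the 6 libraries. Lars2 lies at 549 CPM in unstim. Total replicate 3, above all other points, and is also the highest mitochondrial enzyme in the polyribosome libraries.

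The direction of the Lars2 difference turned with preparation 3. Over all libraries its log2 fold change was -1.06 ± 0.67 unpaired (edgeR adjusted p = 0.295) and -0.41 ± 0.16 with the block (0.0352). Without preparation 3 it was 0.38 and was called higher with the block (edgeR adjusted p = 0.00747), while without preparation 1 it was -0.91 and was called lower (2.0e-05). No direction can be given for Lars2 from these libraries. Part of its annotated transcript resembles other transcripts. Positions 3278 to 3349 of 3894, after the last coding base at 2905, matched the antisense transcript Gm15564 over 72 bases with 98.6% identity, and a stretch from 3233 to 3329 matched AA474408 over 97 bases with 94.8% identity. The part of these matches in the counts was not tested.

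For 13 amino acids a cytosolic and a mitochondrial gene could be set side by side in the same library, which removes the scaling between libraries. Per kb, the cytosolic gene was higher in all 6 libraries for 9 of the 13 pairs, with the widest gap for asparagine, where Nars exceeded Nars2 by 3.51 to 4.22 on the log2 scale. The exceptions were leucine, where Lars2 was higher in every library, and isoleucine, threonine and arginine, where the order varied between libraries. The ratio of cytosolic to mitochondrial gene was higher on polyribosomes than in total RNA for 10 of the 13 pairs. Leucine, at 0.13, counts among the 10 although its values in preparations 1 to 3 were -0.82, -0.54 and 1.76. So do tyrosine, at 0.02, histidine (-0.01, 0.64 and -0.12) and asparagine (0.71, -0.07 and -0.33). The groups did not overlap for methionine and tryptophan, where the difference was 0.84 and 0.74, or for serine, where it was -0.91. Each of these had a two-sided exact permutation p of 0.1, the smallest that 3 against 3 libraries allow, or 0.433 after Benjamini-Hochberg adjustment over the 13 pairs. Taken within preparations, the difference had a single sign in all 3 for 5 pairs. It was positive for methionine, tryptophan, threonine (0.67, 0.31 and 0.28) and arginine (0.13, 0.23 and 2.81), and negative for serine. The arginine value of 2.81 rests on few counts of Rars2 and, in total RNA, of Rars. An exact sign-flip permutation test over the 3 preparations gave 0.25 for each of the 5, the smallest p it allows. The share of other gene pairs with such patterns was not looked at, so these counts describe the 13 pairs only.

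For methionine the log2 ratio of Mars to Mars2 in read counts was 0.89, 0.60 and 0.77 on polyribosomes and 0.09, 0.06 and -0.42 in total RNA. For serine the log2 ratio of Sars to Sars2 was 3.38, 3.45 and 3.15 on polyribosomes and 4.56, 3.96 and 4.19 in total RNA. Mars itself was at a log2 fold change of 0.01 ± 0.17 and Sars at 0.18 ± 0.16, neither past the threshold, so the mitochondrial gene had the larger difference in both pairs. The genes Hars and Hars2, for histidine, lie head to head and share 198 bases on opposite strands. The sources do not say if reads were counted by strand, so the reads of Hars and Hars2 over that stretch are uncertain. The same holds for other members whose transcripts match a gene on the opposite strand. Among these were Iars2 (2034 bases with Rab3gap2), Farsb (250 with Sgpp2) and Cars2 (217 with Naxd).

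**Figure D4:**
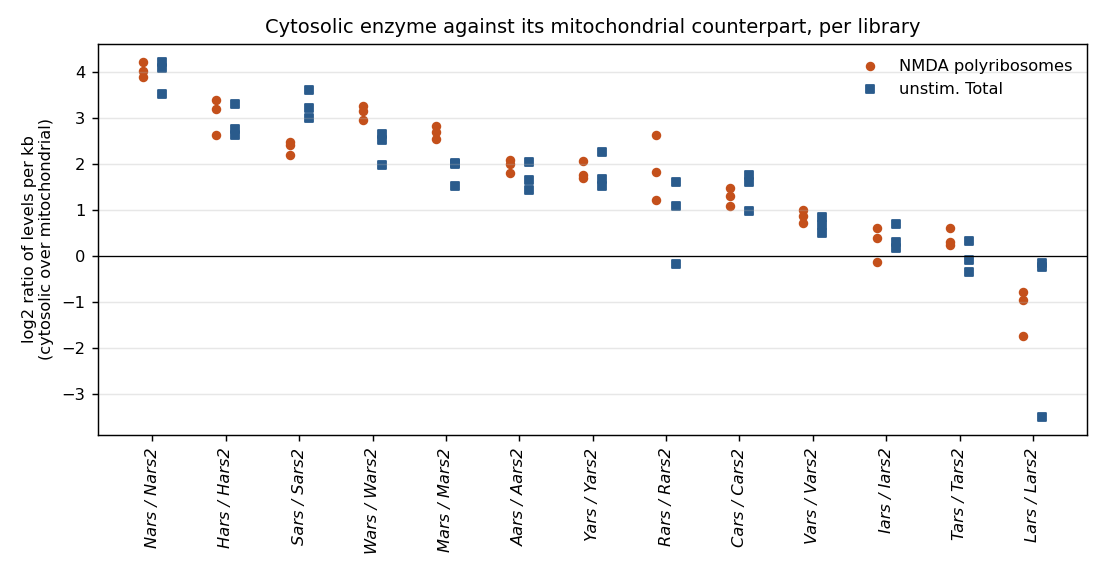
Log2 ratio of the level per kb of each cytosolic synthetase to that of its mitochondrial counterpart within each library, for 13 amino acids ordered by mean ratio. Circles are NMDA polyribosomes, squares unstim. Total, and the line at 0 marks equal levels. Nars over Nars2 is highest and Lars over Lars2 lowest, and in 9 pairs all 6 points lie above the line.

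Base composition and transcript length moved with the fold changes. Across the 36 members the log2 fold change had a Pearson correlation with GC content of 0.55 (Spearman 0.54), and across 12236 genes tested it was 0.54 (Spearman 0.54). Members share libraries and are not independent replicates, so these are descriptions. With transcript length it was -0.25 over the members and -0.34 over all genes. With both properties entered for each library beside the block, 3 members were called, against 15.4% of all genes (8.02% higher and 7.34% lower). Gars was at -0.50 (edgeR adjusted p = 0.00226) and Rars2 at -0.95 (0.00722), both lower, and Dars at 0.49 was higher (0.00418). Mars2 and Sars2 were not called in that edgeR fit, where Sars2 was at 0.65 (adjusted p = 0.195). The median of the cytosolic enzymes was -0.07 and that of the mitochondrial enzymes -0.21 in it.

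Promoters were looked at for the amino acid response element, a short sequence bound by Atf4, the transcription factor of the amino acid response, which is known to act on several cytosolic synthetase genes. RefSeq promoter sequences (GRCm38.p6, 250 bases before to 50 after the annotated start) were at hand for 27 members, 13 cytosolic and 14 mitochondrial. The letters TGATGNAA, searched on both strands, were found in 5 of the 13 cytosolic and 0 of the 14 mitochondrial promoters, and in 3.97% of 32851 promoters of the same length. The letters TGACGTCA, a cAMP response element, were in none of the member promoters and in 1.79% of all. A match from each of these 5 promoters is shown with 10 bases on each side, 5′ to 3′ in the direction of the gene, with the matched letters in capitals (most matches are the element read on the other strand):
Aars, chr8:111033841-111033868, plus strand, from base 10: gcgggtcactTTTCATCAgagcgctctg
Gars, chr6:55037961-55037988, plus strand, 30 bases upstream: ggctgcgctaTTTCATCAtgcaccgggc
Iars, chr13:49682127-49682154, plus strand, from base 8: actgtcagtaTTGCATCAcctccagacg
Tars, chr15:11399656-11399683, minus strand, 15 bases upstream: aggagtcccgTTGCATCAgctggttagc
Yars, chr4:129189896-129189923, plus strand, from base 4: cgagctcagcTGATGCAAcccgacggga

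The genes with these letters did not share a direction. Their log2 fold changes were 0.27 for Aars, -0.46 for Gars, -0.16 for Iars, -0.04 for Tars and 0.23 for Yars, and of these only Gars passed with the block. A match of letters does not show that the factor binds there. A ratio of polyribosome to total RNA does not measure transcription from a promoter, so an action of Atf4 on these genes was not tested.

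Genes that work beside the synthetases were taken from a list of 21, of which 18 had enough counts to be tested. None was called unpaired, where 3.07% of all genes tested were called. At an unadjusted p under 0.05 (edgeR) 2 had positive and 3 negative values, beside 32.5% of all genes. With the block 3 were called, beside 25.0% of all genes. The scaffold proteins of the multi-synthetase complex gave log2 fold changes of 0.05 for Aimp1, 0.50 for Aimp2 and 0.07 for Eef1e1, and none passed. Of the factors that carry charged tRNA to the ribosome, Eef1a2, the neuronal and muscle form of the cytosolic factor, was at 668, 772 and 1055 CPM on polyribosomes and at 416, 580 and 696 in total RNA. With the block it was higher by 0.56 ± 0.12 (edgeR adjusted p = 1.4e-04), although its groups overlapped. Tufm, the mitochondrial counterpart, was at 27.1, 25.5 and 35.8 CPM against 16.1, 23.1 and 18.2, without overlap, and was higher by 0.55 ± 0.17 with the block (edgeR adjusted p = 0.00544). Sepsecs, which makes selenocysteine on its tRNA, was at 10.3, 11.3 and 10.5 CPM against 18.9, 15.4 and 21.1, and was lower, at -0.75 ± 0.19 with the block (edgeR adjusted p = 8.5e-04). With GC content and length entered as well, none of these 3 was called. The 4 genes for the mitochondrial amidotransferase and for formylation of the initiator tRNA, Qrsl1, Gatb, Gatc and Mtfmt, all had negative log2 fold changes, with a median of -0.25, and none passed.

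The amino acid response genes, Atf4 and its known targets outside the synthetases, were a list of 21 of which 17 were tested. Their median log2 fold change was 0.32, with 13 positive and 4 negative. None was called unpaired, where 3.07% of all genes tested were called. At an unadjusted p under 0.05 (edgeR) 7 had positive values, beside 32.5% of all genes in either direction and 1888 of 12255 with positive values. DESeq2 called 4 higher, beside 7.14% of the genes it adjusted in either direction and 321 of 9712 higher. With the block 6 were called higher (edgeR), beside 11.8% of all genes tested. These were Phgdh at 0.80 and Psat1 at 0.57, of serine synthesis, Shmt2 at 0.64, which makes glycine from serine in mitochondria, Slc3a2 at 0.78, the heavy chain of amino acid transporters, and the regulators Ddit4 at 1.10 and Atf5 at 0.74. Phgdh was at 221, 221 and 411 CPM on polyribosomes and at 127, 141 and 209 in total RNA. In brain the serine synthesis enzymes are found mainly in astrocytes. The astrocyte markers were higher in the same direction, with 7 of 10 called higher with the block, beside 11.8% of all genes. The part of astrocyte RNA in these values was not tested. With GC content and length entered beside the block, 6 of the response genes were called higher and 1 lower (edgeR). The shares of all genes were 8.02% and 7.34%. Atf4 itself, at -0.31, and Asns, the asparagine synthetase that is a standard target, at -0.33 in the unpaired fit, were not called in it or with the block. The cytosolic synthetases, many of them targets of Atf4 as well, had a median of -0.01 in the same unpaired fit. These ratios of polyribosome to total RNA do not measure induction of the genes, and an amino acid response was not tested.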

How the data were processed

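RNA of mouse synaptoneurosomes was measured in 6 libraries, 3 per group, with samples grouped by their labels. The authors removed ribosomal RNA, made dUTP libraries that keep the strand, aligned reads with STAR (2.5.2b in the submitters' processing notes) to GRCm38 (mm10), assigned them to genes of Gencode vM6 basic with scripts built on HTSeq, and deposited unnormalized counts per protein-coding gene. Strand use in the counting is not given in the sources used here. The deposited table also holds the authors' own DESeq2 comparison, which was not used. Library totals, 1044955 to 7361580 counts, set the precision of the weak members.

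The counts were fitted with edgeR 4.0.16 in R 4.3.3 (TMM normalization, filterByExpr, quasi-likelihood test, group as the only term) on all genes, and p-values were adjusted by Benjamini-Hochberg over 12255 genes with a threshold of 0.01, that of the study. Standard errors were the log2 fold change divided by the square root of F. Alternatives were DESeq2 1.42.0, the replicate block, RLE or library-total scaling, no filter beyond 1 count, a threshold of 0.05, a spline offset for GC content and transcript length (Gencode vM21, GRCm38, values for 99.9% of genes tested), each library left out, and, chosen after seeing the data, each preparation left out and an exact sign-flip test of the within-library ratios over preparations. The replicate numbers were taken to pair the libraries: the methods divide each preparation into aliquots, the columns of a number share a label, and deviations from group means correlated at 0.37, 0.26 and 0.38 within numbers. Replicates differed by more than sampling noise. Whether preparations come from separate animals is not stated per library, so p-values measure the spread between these libraries. Within-library ratios used counts plus 0.5. Member transcripts were compared with all transcripts with BLAST 2.17.0, and matches of at least 100 bases at 98% identity were taken as shared, or 50 bases at 90% for Lars2. The unpaired edgeR step was tested on simulated counts, where it called 46.7% of genes changed by a log2 of 1 and 92.5% of those changed by 2. Protein sequences were not used here. A gene of the other tRNA charging list and a promoter match are not reported here.

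Described with every library's value were members past the threshold unpaired or with the block, the 3 members at each end of the fold changes in each class, and the highest and lowest by level, and, beside these, members whose groups did not overlap. Of these, Nars, Sars and Yars are given without the level in each library. Of the other genes, those past the threshold and the scaffold proteins are named, together with Atf4, Asns and genes of small lists, which were chosen after their values were seen. The members and gene lists were chosen with earlier results of these data known.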

Additional observations from a re-analysis of the deposited data

How the results depend on the processing

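In the unpaired fit no synthetase was called at the threshold. The shares of all genes called were 3.07% unpaired, 25.0% with the replicate block, and 15.4% with GC content, length and the block. DESeq2 called 7.14% of the genes it adjusted. With the replicate block 1 cytosolic enzyme was called lower, 1 mitochondrial enzyme higher and 2 lower; of the other tRNA charging genes 2 were called higher and 1 lower, and of the amino acid response genes 6 higher. With GC content, length and the block, 1 cytosolic enzyme was called higher and 1 lower, 1 mitochondrial enzyme lower, and 6 amino acid response genes higher and 1 lower. An adjusted p under 0.05, passed by 15.4% of all genes, gave 1 mitochondrial enzyme higher and 2 lower, 1 other tRNA charging gene lower and 6 amino acid response genes higher. Library totals only, and all genes with at least 1 count, each called 1 mitochondrial enzyme lower, which was Mars2, and the latter called 3 amino acid response genes higher. DESeq2 called 4 of these higher. Leaving out each library in turn without the block called no synthetase and 0 to 1 amino acid response genes. These fits called few genes at all. The fewest were 0 higher and 22 lower of 12743 genes, without unstim. Total replicate 2. The most were 61 higher and 197 lower of 12637, without unstim. Total replicate 3.

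With preparation 3 left out, 1 mitochondrial enzyme was lower and 2 amino acid response genes higher unpaired (8.86% of all genes were called); with the block as well, 2 cytosolic enzymes were lower, 1 mitochondrial enzyme higher and 1 lower, 1 other tRNA charging gene higher and 1 lower, and 5 amino acid response genes higher. With the block, 3 mitochondrial enzymes were lower without preparation 1 (12.6% of all genes called) and 2 without preparation 2 (9.7%), where 1 other tRNA charging gene was higher and 1 lower; 3 amino acid response genes were higher in each. Lars2 turned to 0.38 without preparation 3 with the block, and the cause was not tested.

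The cytosolic median was -0.12 with library totals, where the median over all genes was -0.11, -0.066 with GC content, length and the block, and 0.036 without preparation 1 with the block. The mitochondrial median was -0.28 with library totals and -0.042 without preparation 2 with the block, and -0.22 to -0.053 with single libraries left out. Their difference stayed positive under the alternatives run, at 0.010 without preparation 2 with the block and 0.049 to 0.22 with single libraries left out. The median of the other tRNA charging genes, 0.02 unpaired, was -0.095 with library totals, 0.074 with all genes with at least 1 count, -0.051 with the replicate block, -0.061 with GC content and length, -0.11 with those and the block, 0.056 with DESeq2, -0.12 to 0.040 with single libraries left out, -0.045 without preparation 2 with the block, and -0.036 and -0.053 without preparation 3 unpaired and with the block. All other alternatives left the counts within 1.5 times and the medians within the spread between preparations. The depth of unstim. Total replicate 3 limits the weakest members, and leaving out a preparation leaves 2 libraries per group, whose spread is pooled over genes.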
